A study of Mus musculus with 7 samples.

Results

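The Obox genes are mouse homeobox genes whose transcripts accumulate in oocytes, and they were followed here through meiotic maturation and under a ligand of RNA G-quadruplexes (rG4s). The genes were chosen by symbol as Obox1, Obox2, Obox3, Obox5 and Obox6, which are 5 of the 25912 entries listed for each library, and each of the 5 symbols occurs on exactly 1 row. Smart-seq2 libraries of 10 oocytes each had been made from 2 samples of germinal vesicle (GV) oocytes, which the labels list without treatment although the methods name DMSO for control GV oocytes, from 3 samples of metaphase II (MII) oocytes with the solvent DMSO, and from 2 samples of MII oocytes with BYBX, a fluorescent ligand that binds and stabilizes rG4s. Per the methods, the oocytes were collected from young PMSG-primed C57BL/6 females at the GV stage and matured in culture. The labels give no BYBX dose for these libraries and do not say whether replicates came from separate animals, so the p-values measure only the spread between these samples.

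OBOX proteins are homeodomain transcription factors. Obox1, Obox2, Obox5 and Obox7 transcripts are stored in the egg as maternal mRNA, whereas Obox3 is known from the early embryo, and the family as a whole takes part in starting transcription from the embryonic genome after fertilization. During maturation the oocyte does not transcribe, and many of its stored mRNAs are degraded, while others gain a longer poly(A) tail and are translated. Reverse transcription started from oligo-dT primers, so the values follow polyadenylated RNA.

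The genes lie close together on mouse chromosome 7 and, apart from the more distant Obox6, are near copies of each other. In the GENCODE vM21 annotation of GRCm38 (the assembly that UCSC calls mm10), Obox1 spans chr7:15546982-15556866 on the plus strand, Obox2 chr7:15388721-15398545 on the plus strand, Obox5 chr7:15750377-15759800 on the plus strand, Obox3 chr7:15625306-15639777 on the minus strand and Obox6 chr7:15833241-15839678 on the minus strand. One more family member had a row of its own, Obox7 at chr7:14659496-14665996 on the plus strand, and it is given beside the 5 as the relative outside the chosen set. RefSeq names 47 other genes of the family, all marked as pseudogenes, which were not analysed here. The Obox1 and Obox2 transcripts were identical at 99.2% of 1459 aligned bases, with 12 mismatches. Obox1 and Obox5 were identical at 94.2% of 1218 aligned bases, Obox1 and Obox7 at 93.7% of 1452, and Obox5 and Obox7 at 95.3% of 1220. Obox1 and Obox3 were identical at 92.1% of 1149, and Obox1 and Obox6 at 78.3% of 1190. Gaps and unaligned ends are left out of these percentages. Of all 150-base windows of the Obox1 transcript, 31.4% occurred unchanged in Obox2, and 32.7% of those of Obox2 occurred in Obox1. A read of 150 bases that falls within such a window cannot by itself be given to 1 copy, although its mate may place the pair. The authors kept uniquely mapped reads, so pairs that lie wholly within shared windows would be lost to both copies. Read pairs were not examined here, and the levels of Obox1 and Obox2 are uncertain. Obox5, Obox6 and Obox7 had no window in common with another Obox transcript of the GENCODE annotation. The rest of the genome was not searched, so whether their reads map uniquely was not tested.

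The 3′ ends of the 4 abundant transcripts, with that of Obox3 for comparison, are shown because storage and translation of maternal mRNA act through the poly(A) tail. Each line gives 30 bases of the 3′ UTR, 5′ to 3′, from the last TTTTAT upstream of the end of the RefSeq gene model, and the capitals mark TTTTAT, the core of a cytoplasmic polyadenylation element, and ATTAAA, a variant of the polyadenylation signal.
Obox1, chr7:15556811-15556840, plus strand: TTTTATtgttagagtatatgttcATTAAAt
Obox2, chr7:15398490-15398519, plus strand: TTTTATtgttagagtatatgttcATTAAAt
Obox5, chr7:15759213-15759242, plus strand: TTTTATtgttagagtatatgttcATTAAAt
Obox7, chr7:14665943-14665972, plus strand: TTTTATtgttagagaatatgttcATTAAAt
Obox3, chr7:15625673-15625702, minus strand: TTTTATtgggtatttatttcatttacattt
The site was the same in Obox1, Obox2 and Obox5 and differed at 1 base in Obox7. It began 36, 56, 62 and 54 bases before the end of the RefSeq model of Obox1, Obox2, Obox5 and Obox7. In Obox3 the last TTTTAT lay 397 bases from the end, and Obox6 held none. The GENCODE model of Obox5 runs 526 bases past that of RefSeq, and by that end Obox5 had no TTTTAT in its last 100 bases. Among 58616 protein-coding transcripts of the GENCODE annotation, 9.9% held TTTTAT in the last 100 bases and 52.8% held AATAAA or ATTAAA. An rG4 pattern, taken as 4 stretches of 3 or more G separated by 1 to 7 bases, occurred in none of the 6 Obox transcripts and in 12.4% of the 58616. These letters are a description of the transcripts, and neither polyadenylation nor rG4 folding of Obox transcripts was measured here.

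At the RefSeq gene starts, the promoter windows were compared because abundant and near-silent copies can be set side by side there. Each line gives the 100 bases up to the RefSeq gene start (GRCm38.p6), 5′ to 3′ on the strand of the gene, with TATATAAG, a TATA-box-like run, in capitals.
Obox5, chr7:15750270-15750369, plus strand: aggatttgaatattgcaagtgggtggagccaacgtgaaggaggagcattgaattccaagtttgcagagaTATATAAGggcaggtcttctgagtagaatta
Obox1, chr7:15547157-15547256, plus strand: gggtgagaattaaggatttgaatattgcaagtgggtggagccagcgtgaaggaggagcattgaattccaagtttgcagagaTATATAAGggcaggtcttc
Obox3, chr7:15639778-15639877, minus strand: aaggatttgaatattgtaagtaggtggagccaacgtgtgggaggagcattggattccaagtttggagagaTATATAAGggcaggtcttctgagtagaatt
A block of 42 bases around TATATAAG was identical in the windows of Obox1, Obox3, Obox5 and Obox7, counted from 250 bases before to 50 bases after the gene start. The GENCODE model of Obox1 starts earlier, at chr7:15546982, so the bases printed for Obox1 lie inside that model. That of Obox7 starts at chr7:14659496, before its RefSeq start at 14659708, and the block of Obox7 likewise lies inside it. TATATAAG, read on either strand, occurred in 1.01% of 32851 windows of all genes. The window of Obox2 starts from a more upstream position and shared a run of 203 bases with that of Obox1.

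Transcript levels are given as FPKM (fragments mapped to a transcript, divided by its length and by the number of fragments in the library), which the authors had scaled to ERCC spike-in RNA added in equal amount to each lysate and, between batches, to the GV samples. Without deposited counts the depth of each library is unknown. The summed FPKM of all entries was 402113 to 489569 in the GV libraries, 109732 to 127254 in those of MII with DMSO, and 201482 to 246710 after BYBX. Fewer oocytes in a pool and less polyadenylated RNA per oocyte cannot be told apart on this scale. The 9 oocyte markers had a summed level of 11112 to 14545 FPKM in GV, 1711 to 1856 with DMSO and 5528 to 5904 with BYBX. With DMSO 8 of the 9 passed 1 FPKM, and Figla, an oocyte transcription factor, stayed under it, down to 0.0324 FPKM. The 12 markers of granulosa and cumulus cells summed to 5.61 to 11.8 FPKM in GV. Their sums were 1.57 to 2.01 FPKM after DMSO and 2.63 to 3.03 FPKM after BYBX. In their highest libraries Inha reached 5.48 FPKM and Cyp19a1 4.49 FPKM, while Ptx3 was at 0 throughout. The 8 rows of erythrocyte markers summed to 1.20 FPKM at most. The levels of these other cell types are far under those of Obox1, Obox2 and Obox5, and their part in the results was not tested.

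Obox1, Obox2 and Obox5 were abundant in all 7 libraries, Obox7 was lower, and Obox3 and Obox6 were near 0. Obox5, a homeodomain factor of the maternal set, was the most abundant member, at 786.7 and 763 FPKM in the GV libraries, 563, 790.4 and 601 FPKM with DMSO in MII, and 821 and 623 FPKM in those with BYBX. The highest library with DMSO lay above both GV libraries, so the 3 groups overlapped. The group means of Obox5 were 775 ± 16.7 FPKM (SD, n = 2) in GV, 651 ± 122 FPKM (SD, n = 3) with DMSO and 722 ± 140.3 FPKM (SD, n = 2) with BYBX.

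Obox1 had 373 and 341 FPKM in GV, 220.02, 333 and 261 FPKM with DMSO, and 420.4 and 309 FPKM with BYBX. All 3 libraries with DMSO lay below both GV libraries, although the nearest ones were only 333 and 341 FPKM, and the BYBX libraries lay on either side of GV. The group means were 357 ± 22.5, 271 ± 57.2 and 365 ± 78.9 FPKM (SD, n = 2, 3 and 2).

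Obox2, the near-identical copy of Obox1, had 287 and 299 FPKM in GV, 235, 373 and 303 FPKM with DMSO, and 451 and 331 FPKM with BYBX. Both GV values lay within the range of the libraries with DMSO, and both BYBX libraries lay above GV. The group means were 293 ± 8.89, 304 ± 69.1 and 391 ± 85.0 FPKM (SD, n = 2, 3 and 2). In GV the order was Obox5, Obox1, Obox2, with no overlap between neighbours, whereas the ranges of Obox1 and Obox2 overlapped in both MII groups, where Obox5 stayed above them in each library.

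Obox7, the relative outside the chosen 5, had 139 and 118 FPKM in GV, 43.2, 50.3 and 47.9 FPKM with DMSO, and 60.0 and 64.8 FPKM with BYBX. The 3 groups of Obox7 did not overlap, with GV highest, BYBX between and DMSO lowest. The share of all entries whose groups do not overlap is not given here, so such separation is only a description. The group means were 129 ± 15.3, 47.1 ± 3.58 and 62.4 ± 3.45 FPKM (SD, n = 2, 3 and 2).

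Obox3, which is known from the early embryo, was listed at 0.370 and 0.287 FPKM in GV, at 0 in each library with DMSO, and at 0 and 0.192 FPKM with BYBX. Obox6, a more distant copy by sequence, was listed at 0.139 and 0.538 FPKM in GV, at 0.0263, 0.703 and 0.128 FPKM with DMSO, and at 0 and 0.0399 FPKM with BYBX. Neither reached 1 FPKM in any library, and a fold between values this low is not given. Part of Obox3, 10.7% of its 150-base windows, also occurs in an annotated pseudogene, Obox3-ps3.

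**Figure D1:**
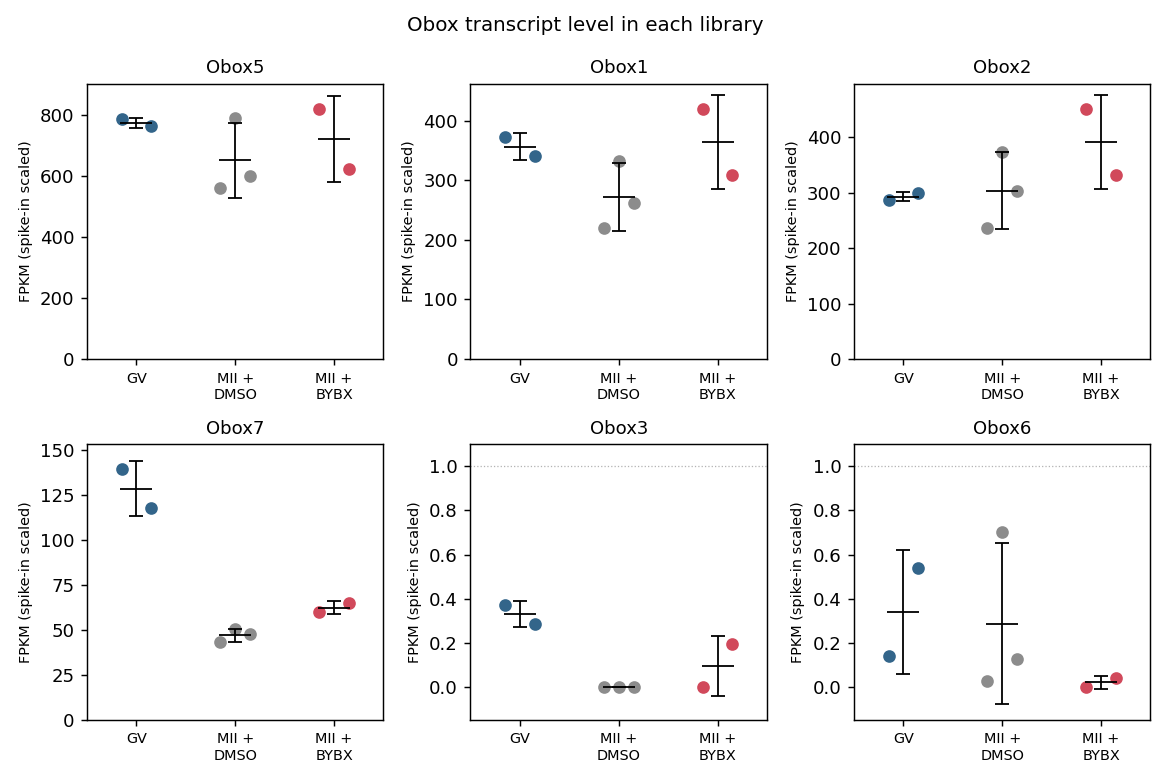
Level of each Obox transcript in the 7 libraries. The vertical axes give spike-in-scaled FPKM on a range of their own for each gene, points are single libraries, long bars are group means with the SD, and the dotted line in the panels of Obox3 and Obox6 marks 1 FPKM. Obox5 overlaps between the 3 groups, Obox1 is lower in the 3 libraries with DMSO than in GV, Obox2 is higher in the 2 BYBX libraries than in GV, Obox7 is highest in the 2 GV libraries, at 139 and 118 FPKM, and Obox3 and Obox6 stay under 1 FPKM. The Obox1 and Obox2 differences named here did not pass the limma test described below.

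The first comparison, MII with DMSO against GV, follows polyadenylated maternal mRNA through normal maturation. Obox1, Obox2 and Obox5 differed by less than could be called between the stages, while most other transcripts were lower in MII. Each gene was tested with limma on log2(FPKM + 1) within a fit of 9202 entries, those averaging at least 1 FPKM over the 3 group means, and an entry was called at a Benjamini-Hochberg adjusted p under 0.05. Of the 5 genes, 3 were high enough to be tested, and 0 of them were called higher and 0 lower. Over all entries 88.3% were called lower and 0.272% higher. In this limma fit 0 of the 3 had an unadjusted p under 0.05. On the log2(FPKM + 1) scale the difference of MII with DMSO minus GV was -0.41 for Obox1 (SE 0.26, 95% interval -0.97 to 0.15, limma adjusted p = 0.146). It was 0.03 for Obox2 (SE 0.26, 95% interval -0.54 to 0.60, limma adjusted p = 0.922). For Obox5 it was -0.27 (SE 0.24, 95% interval -0.79 to 0.26, limma adjusted p = 0.305). The intervals leave room for a moderate fall or rise of each of the 3 on the spike-in scale, but each lies wholly above the median difference of all tested entries, -1.83. The median of the 3 genes was -0.27, and 1.64% of all entries had a larger difference than Obox2, 4.86% a larger one than Obox5 and 7.57% a larger one than Obox1.

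On the deposited scale Obox7 was called lower after maturation with DMSO, by -1.43 on the log2 scale (SE 0.24, 95% interval -1.95 to -0.91, limma adjusted p = 7.4e-05). When the libraries were brought to the same total FPKM, its difference turned to 0.44 and was not called (limma adjusted p = 0.054). With each library centred on its median it was 0.88, called higher (limma adjusted p = 0.0013). As deposited, the mean of Obox7 with DMSO was 0.367 of that in GV. Its deposited difference was thus nearer to the median of all entries than those of Obox1, Obox2 and Obox5, with 37.6% of entries above it. Among the 870 entries with at least 100 FPKM in GV, the median was -3.04, below the interval of Obox7.

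The signs for Obox1 and Obox5 in this comparison depend on what is held equal between libraries, while that of Obox2 was positive on each of the 3 scales. After rescaling each library to the same total FPKM, all 3 genes were called higher in MII with DMSO than in GV, with log2 differences of 1.47 for Obox1, 1.91 for Obox2 and 1.62 for Obox5. After centring each library on its median, the 3 differences were 1.89, 2.33 and 2.04, again called higher. The median of all entries itself moved from -1.83 as deposited to -0.56 with equal totals and to 0.47 with centring, so relative to that median the 3 genes stood 1.42 (Obox1), 1.86 (Obox2) and 1.57 (Obox5) higher as deposited. Over all entries, 25 were called higher and 8127 lower as deposited, 2141 and 4557 with equal totals, and 4494 and 2456 with centring. With equal totals the 3 genes were thus called higher, and on the spike-in scale they were not called.

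**Figure D2:**
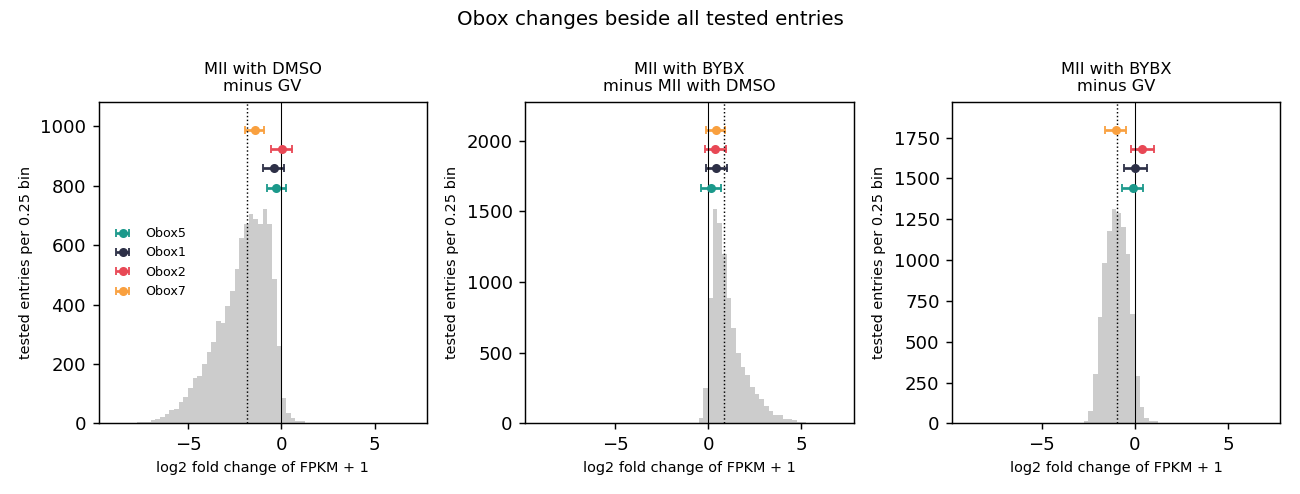
Differences of Obox5, Obox1, Obox2 and Obox7 beside those of all 9202 tested entries in the 3 comparisons. The horizontal axes give the log2 fold change of FPKM + 1 on the deposited scale, grey bars count entries, coloured points with bars are the genes with their 95% intervals, and the dotted line is the median of all entries. In MII with DMSO minus GV, the intervals of Obox1, Obox2 and Obox5 cover 0 and lie above the median of -1.83, whereas that of Obox7 lies below 0 and covers that median. The interval of Obox7 lies above the median of -3.04 among the 870 entries with at least 100 FPKM in GV. That place of Obox7 below 0 is not kept with equal totals, where its difference is 0.44.

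The second comparison was MII with BYBX against MII with DMSO. The paper reports that BYBX lowered the rate of polar body emission and that treated oocytes reaching MII had abnormal spindles. The labels name both groups MII, but the share of oocytes that completed maturation is not given for these libraries. An action of the ligand on transcripts and impaired maturation cannot be told apart here. The Obox genes did not pass the test in this comparison, and their differences were on the side of higher levels with BYBX, as for most transcripts. In limma 0 of the 3 tested genes were called higher and 0 lower, where 65.2% of all entries were called higher and 0.0326% lower. None of the 3 had an unadjusted p under 0.05 in limma. The difference of BYBX minus DMSO was 0.43 for Obox1 (SE 0.26, 95% interval -0.13 to 0.99, limma adjusted p = 0.159). It was 0.37 for Obox2 (SE 0.26, 95% interval -0.20 to 0.94, limma adjusted p = 0.223) and 0.15 for Obox5 (SE 0.24, 95% interval -0.37 to 0.67, limma adjusted p = 0.586). The median over all entries was 0.84, which lay inside the intervals of Obox1 and Obox2 and above that of Obox5, and 92.3% of entries had a larger difference than Obox5. Among the 870 entries with at least 100 FPKM in GV, the median was 1.66, and 73.4% were called higher. That median lay above the intervals of Obox1, Obox2 and Obox5. Obox7 had a difference of 0.40 (SE 0.24, 95% interval -0.12 to 0.92, limma adjusted p = 0.159), and its libraries did not overlap between these groups.

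With equal totals the signs turned in this comparison too, to -0.46 for Obox1, -0.52 for Obox2 and -0.74 for Obox5, and Obox5 was then called lower (limma adjusted p = 0.0079). With centring all 3 were called lower, at -0.85, -0.91 and -1.13. Obox7 was at -0.48 and not called with equal totals (limma adjusted p = 0.054), and at -0.88 and called lower with centring (limma adjusted p = 0.0026). Over all entries, 6000 were called higher and 3 lower as deposited, 3672 and 756 with equal totals, and 1696 and 4040 with centring. The median of all entries was 0.84, 0.34 and -0.44 under the same 3 scales. The sign of the Obox differences between the MII groups thus followed the choice of scale.

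The third comparison, MII with BYBX against GV, shares its BYBX libraries with the second comparison and its GV libraries with the first. Obox1, Obox2 and Obox5 were again not called in limma, 0 higher and 0 lower, beside 69.2% of all entries called lower and 0.315% called higher, and 0 of the 3 had an unadjusted p under 0.05. The difference of BYBX minus GV was 0.02 for Obox1 (95% interval -0.60 to 0.63, limma adjusted p = 0.962) and -0.12 for Obox5 (95% interval -0.69 to 0.46, limma adjusted p = 0.708). For Obox2 it was 0.40 (95% interval -0.22 to 1.02, limma adjusted p = 0.228), with both BYBX libraries above both GV libraries. The median of all entries was -0.99. Obox7 was called lower, by -1.03 (95% interval -1.60 to -0.46, limma adjusted p = 0.0038), a difference that shrank to -0.05 and was not called with equal totals. With equal totals Obox1, Obox2 and Obox5 were called higher with BYBX than in GV, at 1.01, 1.39 and 0.88. Over all entries, 29 were called higher and 6370 lower as deposited, 488 and 1222 with equal totals, and 1397 and 1250 with centring.

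**Figure D3:**
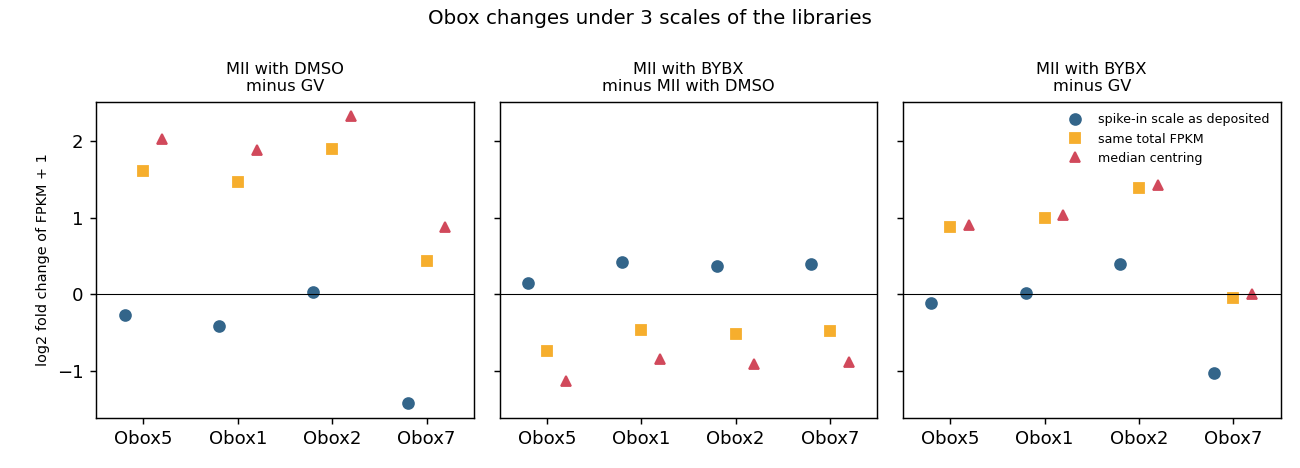
Log2 fold change of FPKM + 1 of Obox5, Obox1, Obox2 and Obox7 under 3 scales of the libraries. Circles are the spike-in scale as deposited, squares the libraries rescaled to the same total FPKM, and triangles the libraries centred on their median, with 1 panel per comparison. In MII with DMSO minus GV, Obox5 moves from -0.27 to 1.62 and 2.04, and in BYBX minus DMSO it moves from 0.15 to -0.74 and -1.13.

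Summed over the 5 genes, the Obox level was 1446 and 1404 FPKM in the GV libraries, 1018, 1498 and 1165 FPKM with DMSO, and 1693 and 1263 FPKM with BYBX. The ranges of the sum overlapped in all 3 groups. The group means were 1425 ± 30.1, 1227 ± 246 and 1478 ± 304 FPKM (SD, n = 2, 3 and 2). As a share of the summed FPKM of a library, the 5 genes made up 0.322 ± 0.0380% in GV, 1.02 ± 0.168% with DMSO and 0.656 ± 0.0420% with BYBX. Obox5 alone ranked 74 and 66 by level among 25908 entries in the GV libraries, 25, 21 and 27 in those with DMSO, and 30 and 37 in those with BYBX. Each MII library thus had fewer entries above Obox5 than either GV library. Obox1 ranked 188 and 162 in GV, 62, 46 and 63 with DMSO, and 73 and 85 with BYBX.

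Ratios between Obox transcripts of the same library do not depend on its scale, and they are given as a description. Those with Obox1 or Obox2 carry the uncertainty of the windows these copies share. Obox2 over Obox1 was 0.769 and 0.878 in GV, 1.07, 1.12 and 1.16 with DMSO, and 1.07 and 1.07 with BYBX. The ratio was under 1 in both GV libraries and over 1 in all 5 MII libraries. Obox5 over Obox1 was 2.11 and 2.24 in GV, 2.56, 2.37 and 2.30 with DMSO, and 1.95 and 2.02 with BYBX, so the BYBX libraries were lowest and those with DMSO highest. Obox7 over Obox5 was 0.177 and 0.154 in GV, 0.0769, 0.0636 and 0.0796 with DMSO, and 0.0730 and 0.104 with BYBX. All 5 MII libraries lay below both GV libraries in this last ratio, whatever the scale, but the difference in the ratio was not tested.

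**Figure D4:**
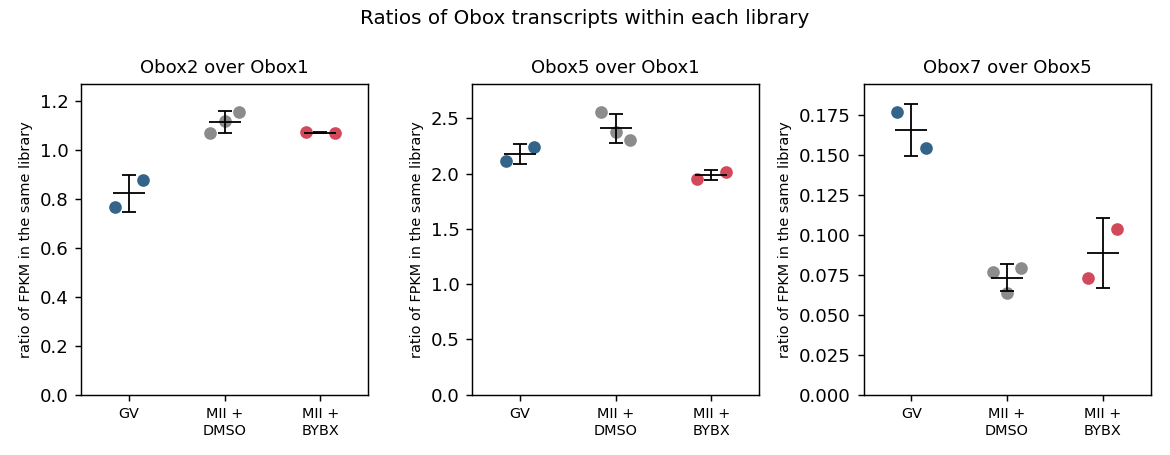
Ratios of FPKM between Obox transcripts of the same library. The vertical axes give the ratio, starting from 0, points are single libraries, and long bars are group means with the SD. Obox2 over Obox1 is under 1 in the 2 GV libraries and over 1 in the 5 MII libraries, and Obox7 over Obox5 is 0.154 or more in GV and 0.104 or less in MII. The levels of Obox1 and Obox2 are uncertain because they share windows, and no ratio was tested.

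Among 5214 entries with at least 10 FPKM in the highest group, those whose pattern over the 7 libraries lay nearest to that of Obox5 were Hmgxb4, Ppig, Wtap, Nus1 and Plekha8, at distances of 0.211, 0.229, 0.240, 0.257 and 0.260 on the log2 scale. The distance is the root of the summed squared differences between the log2 values of 2 entries, each centred on its own mean. Wtap, a subunit of the RNA m6A methyltransferase complex, was the most abundant of the 5, with group means of 179.7 (GV), 157 (DMSO) and 175 FPKM (BYBX). Within the family, Obox1 lay at 0.333 from Obox5, with 13 entries nearer, Obox2 at 0.557 with 168 nearer, and Obox7 at 1.38 with 1394 nearer. All 7 libraries enter this measure, and it follows their scale.

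Other homeobox genes were set beside the family. Of 43 listed genes of oocytes and early embryos, 41 symbols had a row and 19 rows were high enough to be tested. Duxbl1 has repeated rows among these, with near-equal values (10.43 and 10.42 FPKM in GV), so it enters the counts more than once. In MII with DMSO against GV, 16 of these 19 rows were called lower in limma, 0 higher, and 3 were not called, near the background of 88.3% called lower over all entries. Their median difference was -1.88 beside -1.83 over all entries. Nobox, a homeobox regulator of oocyte genes, fell from 362 ± 103 FPKM in GV to 6.64 ± 0.609 FPKM with DMSO (log2 difference -5.54, limma adjusted p = 4.8e-10) and was at 101 ± 12.5 FPKM with BYBX. Lhx8, a LIM homeobox regulator of early oocyte growth, had 212 ± 60.1, 6.02 ± 1.48 and 47.4 ± 7.65 FPKM in the same order. Pou5f1, which encodes the pluripotency factor OCT4, had 78.8 ± 10.1, 21.0 ± 5.26 and 52.5 ± 39.8 FPKM. Meis2, a TALE homeobox gene, had 100.02 ± 26.2, 43.0 ± 7.80 and 59.3 ± 5.72 FPKM. These 4 genes, which are named as the highest of the list in GV, were all called lower with DMSO than in GV, and the 3 rows not called were Pbx2, Cux1 and Hmbox1. In BYBX against DMSO, 10 of the 19 rows were called higher and 9 were not called (median 1.08, 65.2% of all entries called higher), and in BYBX against GV, 12 were called lower and 7 were not called (median -0.98, 69.2% of all entries called lower).

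**Figure D5:**
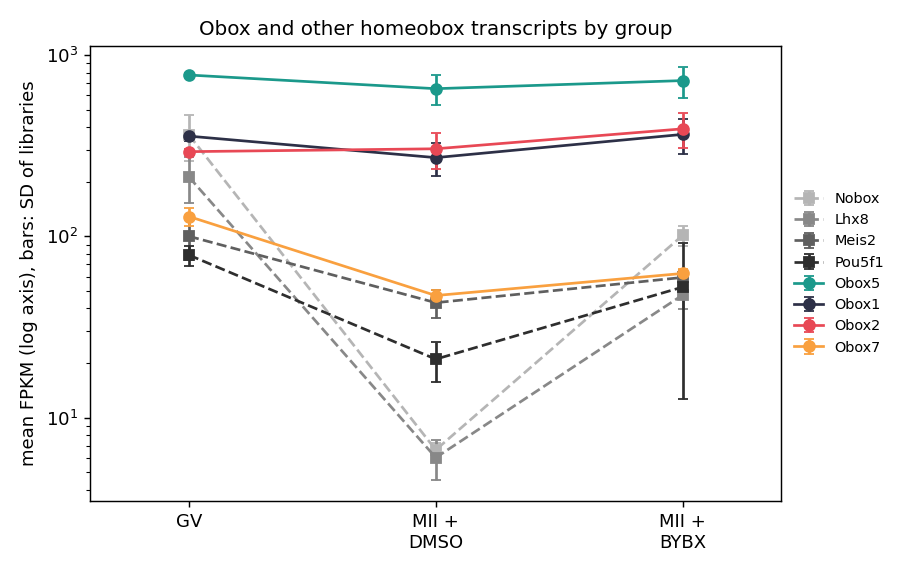
Mean FPKM of Obox and other homeobox transcripts in the 3 groups. The vertical axis is logarithmic, bars are the SD of 2 or 3 libraries, coloured circles are Obox genes and grey squares are the 4 listed homeobox genes highest in GV. Nobox moves from 362 FPKM in GV to 6.64 FPKM with DMSO and 101 FPKM with BYBX, while Obox5 stays between 651 and 775 FPKM.

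Regulators named for early genome activation, the process in which the Obox family takes part, were counted in the same way. Of 30 listed symbols 28 had a row and 17 rows were tested. In MII with DMSO against GV 13 were called lower in limma, 0 higher, and 4 were not called, with a median difference of -1.72, beside 88.3% of all entries called lower. Dppa3, a maternal factor that guards methylation in the early embryo, had 208 ± 20.1 FPKM in GV, 95.9 ± 20.9 FPKM with DMSO and 161 ± 16.1 FPKM with BYBX, and was called lower with DMSO than in GV. Klf17, a zinc finger factor, had 142 ± 21.7, 105 ± 6.19 and 130.4 ± 18.4 FPKM and was not called (limma adjusted p = 0.114). Dppa2 fell from 100.2 ± 26.2 to 1.15 ± 0.513 FPKM and was at 19.2 ± 3.13 FPKM with BYBX, and Nelfa had 63.8 ± 24.2, 15.2 ± 4.74 and 29.8 ± 4.08 FPKM. In BYBX against DMSO 12 of the 17 rows were called higher and 5 were not called (median 0.77), beside 65.2% of all entries called higher. In BYBX against GV 8 were called lower and 9 were not called (median -0.59), beside 69.2% of all entries called lower.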

How the data were processed

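RNA of 10 mouse oocytes per library was amplified by Smart-seq2 with ERCC spike-in RNA and sequenced as 150-base read pairs. Per the labels and methods, the authors used Trim Galore 0.6.7, HISAT2 2.2.1 with the mm10 genome, and Cufflinks 2.2.1 on UCSC gene models with uniquely mapped reads. The deposited FPKM values carry the authors' scaling to the spike-in, with GV samples used to bring batches together, and each library has its own table. The factors are not given in the sources used here, and batches are not named for single libraries. Depth is unknown, so precision is that of 2 or 3 libraries per group.

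Groups came from the sample titles. The 25912 entries were kept as listed, except 4 with a missing value. Log2(FPKM + 1) of the 9202 entries with a mean of the 3 group means of at least 1 FPKM was fitted with limma 3.58.1 under R 4.3.3 (linear model with trended empirical Bayes variance, 7 libraries, 3 group means, 4 residual degrees of freedom), and p-values were adjusted by the Benjamini-Hochberg method over all 9202. The step was tested on simulated data. Alternatives were a pseudocount of 0.1 FPKM, a filter at 5 FPKM or none, median centring, equal total FPKM, a replicate block, models of the 2 compared groups alone, an untrended variance, a 2-fold minimum, rows of 1 symbol summed, and each library left out in turn.

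The genes named were the 5 symbols, other Obox rows of at least 1 FPKM, the 5 entries most like the most abundant Obox gene, and the 4 genes highest in GV of each list. Members and lists were chosen with earlier results of these data known. Transcripts were taken from GENCODE vM21, and gene ends and promoter windows from RefSeq (GRCm38.p6), with all 6 Obox genes matched to a transcript and 5 to a promoter window. Sequences were read with Python 3.11.15 and aligned with Biopython 1.88, and plots were drawn with matplotlib 3.10.9.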

Additional observations from a re-analysis of the deposited data

How the results depend on the processing

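The scale of the libraries turned the sign of most Obox differences but not of all. Obox2 stayed positive in MII with DMSO against GV (0.03 as deposited, 1.91 with equal totals, 2.33 with centring), and in BYBX against GV so did Obox1 (0.02, 1.01 and 1.04) and Obox2 (0.40, 1.39 and 1.42). Obox7 stayed negative in BYBX against GV (-1.03, -0.05 and -0.0015), and among these scales it was called only as deposited. With equal total FPKM, 3 Obox genes were called higher for DMSO minus GV, 1 (Obox5) was called lower for BYBX minus DMSO, and 3 were called higher for BYBX minus GV. With median centring the numbers were 3 higher, 3 lower and 3 higher. In MII with DMSO against GV the log2 differences became 1.47 (Obox1), 1.62 (Obox5) and 0.44 (Obox7) with equal totals, and 1.89, 2.04 and 0.88 with centring. In BYBX against DMSO they became -0.46 (Obox1), -0.52 (Obox2), -0.74 (Obox5) and -0.48 (Obox7) with equal totals, and -0.85, -0.91, -1.13 and -0.88 with centring. In BYBX against GV, Obox5 became 0.88 with equal totals and 0.91 with centring. Without a filter on level 1 gene, Obox3, was called lower for DMSO minus GV, from values under 1 FPKM. As a share of the library total, the summed Obox level was 0.322% in GV, 1.02% with DMSO and 0.656% with BYBX. No Obox gene of the 5 was called in any of the 7 fits that left out 1 library, and Obox7 was called lower than GV in 7 of 7, with DMSO and with BYBX. Over these 7 fits the sign was not kept for Obox2 in MII with DMSO against GV (-0.13 to 0.20), for Obox5 in BYBX against DMSO (-0.049 to 0.35), or for Obox1 (-0.21 to 0.24) and Obox5 (-0.31 to 0.084) in BYBX against GV. The sign of Obox2 turned without the first GV library or the second DMSO library, that of Obox5 in BYBX against DMSO without the first BYBX library, that of Obox1 without the second GV or the first BYBX library, and that of Obox5 in BYBX against GV without the second BYBX library. The filter at 5 FPKM tested 5508 entries, of which 4842 were called lower for DMSO minus GV, 3686 higher for BYBX minus DMSO and 3779 lower for BYBX minus GV. A minimum of 2-fold left 3875 called higher for BYBX minus DMSO.

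Replicate numbers were not used to pair the samples, since no label ties a number to an animal or day. Deviations of like-numbered libraries correlated at 0.487 and 0.282 for DMSO and GV and at -0.601 and -0.348 for BYBX and DMSO. For BYBX and GV both values were -0.33. GV and BYBX have 2 libraries each, whose deviations mirror each other, so these correlations cannot decide whether libraries were paired. With the replicate block 0 Obox genes of the 5 were called in each comparison, and the differences of MII with DMSO minus GV were -0.40 for Obox1, 0.02 for Obox2 and -0.22 for Obox5. The count of all entries called lower in MII with DMSO was 7777 with the replicate block, beside 8127 without it.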
